A study of Mus musculus with 12 samples.

Results

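The genes described here encode the enzymes that write and erase lysine methylation and acetylation on histones, with a few of their partners, in embryonic testis of mice with and without an ancestor exposed to thiacloprid (thia), a neonicotinoid insecticide. Members were taken by symbol from the deposited count files: the Kmt2 to Kmt5, Kdm1 to *Kdm8*, Hdac, Setd, Setdb, Kat2 to *Kat8*, Nsd, Ehmt and Suv39h genes, the polycomb genes *Ezh1*, *Ezh2*, *Eed* and *Suz12*, and *Dot1l*, *Ogt* and *Zmynd8*, with the Y-linked *Kdm5d* left out. The rule found 63 genes among 35976 symbols, and sorting them by function gave 26 writers, 28 erasers and 9 other genes. *Nsd2*, *Nsd3*, *Kmt5b* and *Kmt5c* are carried in the files under their older symbols *Whsc1*, *Whsc1l1*, *Suv420h1* and *Suv420h2* and fell outside the rule. RNA was sequenced from testes of outbred Swiss embryos at E15.5 (embryonic day) in 12 libraries, 3 in each of 4 groups, and each library held the pooled testes of 3 embryos. In F1 thia, the dam was gavaged with thia at 6 mg/kg/day from E6.5 to E15.5, so the embryo itself was exposed. Dams of F1 control received the olive oil vehicle at the same days. The F3 thia embryos descended from such an exposed F1 through males only, each crossed to untreated, unrelated females, and F3 control embryos descended in the same way from vehicle-treated dams. A pool of 3 embryos gives 1 value, so the spread between libraries is a spread between pools. The labels do not say whether the pools of a group came from different litters.

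Histone lysine methylation is set by enzymes with a SET domain (and by *Dot1l*, which has none) and removed by the Kdm demethylases, and its effect depends on the residue. Methylation of H3K4 marks promoters and enhancers of active genes, H3K36 and H3K79 methylation mark transcribed gene bodies, and H3K9 and H3K27 methylation accompany silencing. Acetylation is added by the Kat enzymes and removed by the histone deacetylases. In the testis at E15.5 the male germ cells are prospermatogonia, which stop dividing and rebuild their DNA methylation, while Sertoli and Leydig cells around them form cords and make androgen. In a whole testis, fewer cells of a type and less RNA per cell cannot be told apart.

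The libraries held 25081647 to 68996146 counts. Values below are CPM, a gene's count relative to the total of its library, after scaling by the trimmed mean of M values over the 12 libraries, and levels of different genes are compared as CPM per kb of exon. Markers of germ, Sertoli and Leydig cells were present in every library, and no marker of any list was at 0 in any group. The summed CPM of 8 erythroid markers ran from 5219 to 15438 in F1 control, from 7861 to 19009 in F1 thia, from 61981 to 66738 in F3 control and from 45126 to 82313 in F3 thia, where replicate 2 was highest. The 11 germ cell markers summed to 1308 to 1787 CPM in F1 control and 1173 to 1351 in F1 thia, and 7 of the 11 were lower in F1 thia at an unadjusted p under 0.05. In the same comparison 4 of 10 skeletal muscle markers were higher, with sums of 50.7 to 115 CPM in F1 control and of 85.9, 621 and 63.7 CPM in F1 thia, where replicate 2 stood far above the rest. Also higher in F1 thia were 2 of 5 mesonephros and duct markers (sums of 9.33 to 12.1 CPM in control and 12.7 to 19.8 in thia), 2 of 7 interstitial, 2 of 4 ovary and 1 of 5 macrophage markers. The germ cell sum was 743 to 1155 CPM in F3 control and 511 to 1011 in F3 thia, with 4 of 11 lower by the same test. In F3 thia all 5 endothelial markers were higher (sums of 144 to 166 CPM in F3 control and 223 to 266 in F3 thia). So were 3 of 6 Leydig cell, 3 of 8 Sertoli cell, 3 of 7 interstitial and 1 of 4 ovary markers. Lower in F3 thia were 2 of 8 erythroid and 1 of 4 mesonephros and duct markers, and of 10 skeletal muscle markers 1 was higher and 1 lower. The part of these cell types in the results below was not tested.

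Per kb of exon, the levels of the 63 genes spanned from 65.5 CPM per kb for *Ehmt2*, over all 12 libraries, to 0.124 for *Setdb2*. *Ehmt2* encodes G9a, which with its partner *Ehmt1* mono- and dimethylates H3K9. *Hdac2* followed at 58.3 CPM per kb, *Kdm1a*, the H3K4 demethylase LSD1, at 41.7 and *Kdm1b*, its relative LSD2, at 29.2. These genes head the list, but their order depended on the group: in F3 control *Hdac2* stood at 57.4 ± 3.48 CPM per kb (SD, n = 3) and *Ehmt2* at 48.0 ± 3.82, whereas in F1 control *Ehmt2* stood at 77.6 ± 7.49 and *Hdac2* at 66.8 ± 6.18. *Hdac1* and *Hdac3* came next at 24.4 and 23.8 CPM per kb over all libraries. In F1 control their levels, 24.0 ± 1.03 and 22.4 ± 1.87, differed by less than the larger SD. The H3K4 methyltransferases with the longest transcripts lay near the bottom, *Kmt2c* at 1.71 CPM per kb, above *Hdac4* (1.34) and *Hdac9* (0.929). *Kdm4d* at 0.182 and *Setdb2* at 0.124 were barely detected, with CPM between 0.243 and 0.852 in every library, and their fold changes carry standard errors above 0.3.

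Among the F3 embryos, the H4K16 acetyltransferase *Kat8*, with lower RNA in F3 thia, had the smallest unadjusted p of all members. Of the members with higher RNA, those with the smallest p were *Setd1b*, *Kdm6b*, *Kmt2c*, *Kmt2e* and *Kdm2a*. Among these, *Setd1b* and *Kmt2c* are H3K4 methyltransferases, and *Kdm6b* and *Kdm2a* are demethylases of H3K27 and H3K36. No gene at all passed edgeR's quasi-likelihood test at a Benjamini-Hochberg adjusted p of 0.1 (0 of 18539 genes, 0%), so no member did. At an unadjusted p under 0.05, 20 of the 63 members (31.7%) were higher in F3 thia, where 11.0% of all genes were, and 3 (4.76%) were lower, where 10.0% of all genes were. DESeq2 at the same adjusted threshold called 12 of 61 members higher (19.7%, against 9.17% of all genes) and 1 lower (1.64%, against 5.70%), while it gave *Kdm4d* and *Setdb2* no adjusted p. All 3 F3 thia libraries lay above all 3 F3 controls in 17 of the 63 members (against 13.4% of all genes) and below them in 7 (against 13.9%). The median log2 fold change was 0.08 over members and 0.00 over all genes. The 23 members at p under 0.05 kept their direction in each fit without 1 library, and 7 of them (*Dot1l*, *Kat8*, *Kdm2a*, *Kdm6b*, *Kmt2c*, *Kmt2e* and *Setd1b*) stayed under 0.05 in each. Without F3 control 1 the count was 7 (11.1%, against 11.9% of all genes in that fit), without F3 control 3 it was 14 (22.2%, against 17.9%), and without F3 thia 3 it was 11 (17.5%, against 13.8%), in place of 23. Without F3 thia 2, the library with the most erythroid RNA, edgeR called 9 members higher at the adjusted threshold (14.3%, against 4.23% of all genes) and 1 lower (1.59%, against 2.59%). Over the 6 fits without 1 library, 0 to 10 members passed that threshold, and this fit gave the most.

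**Figure D1:**
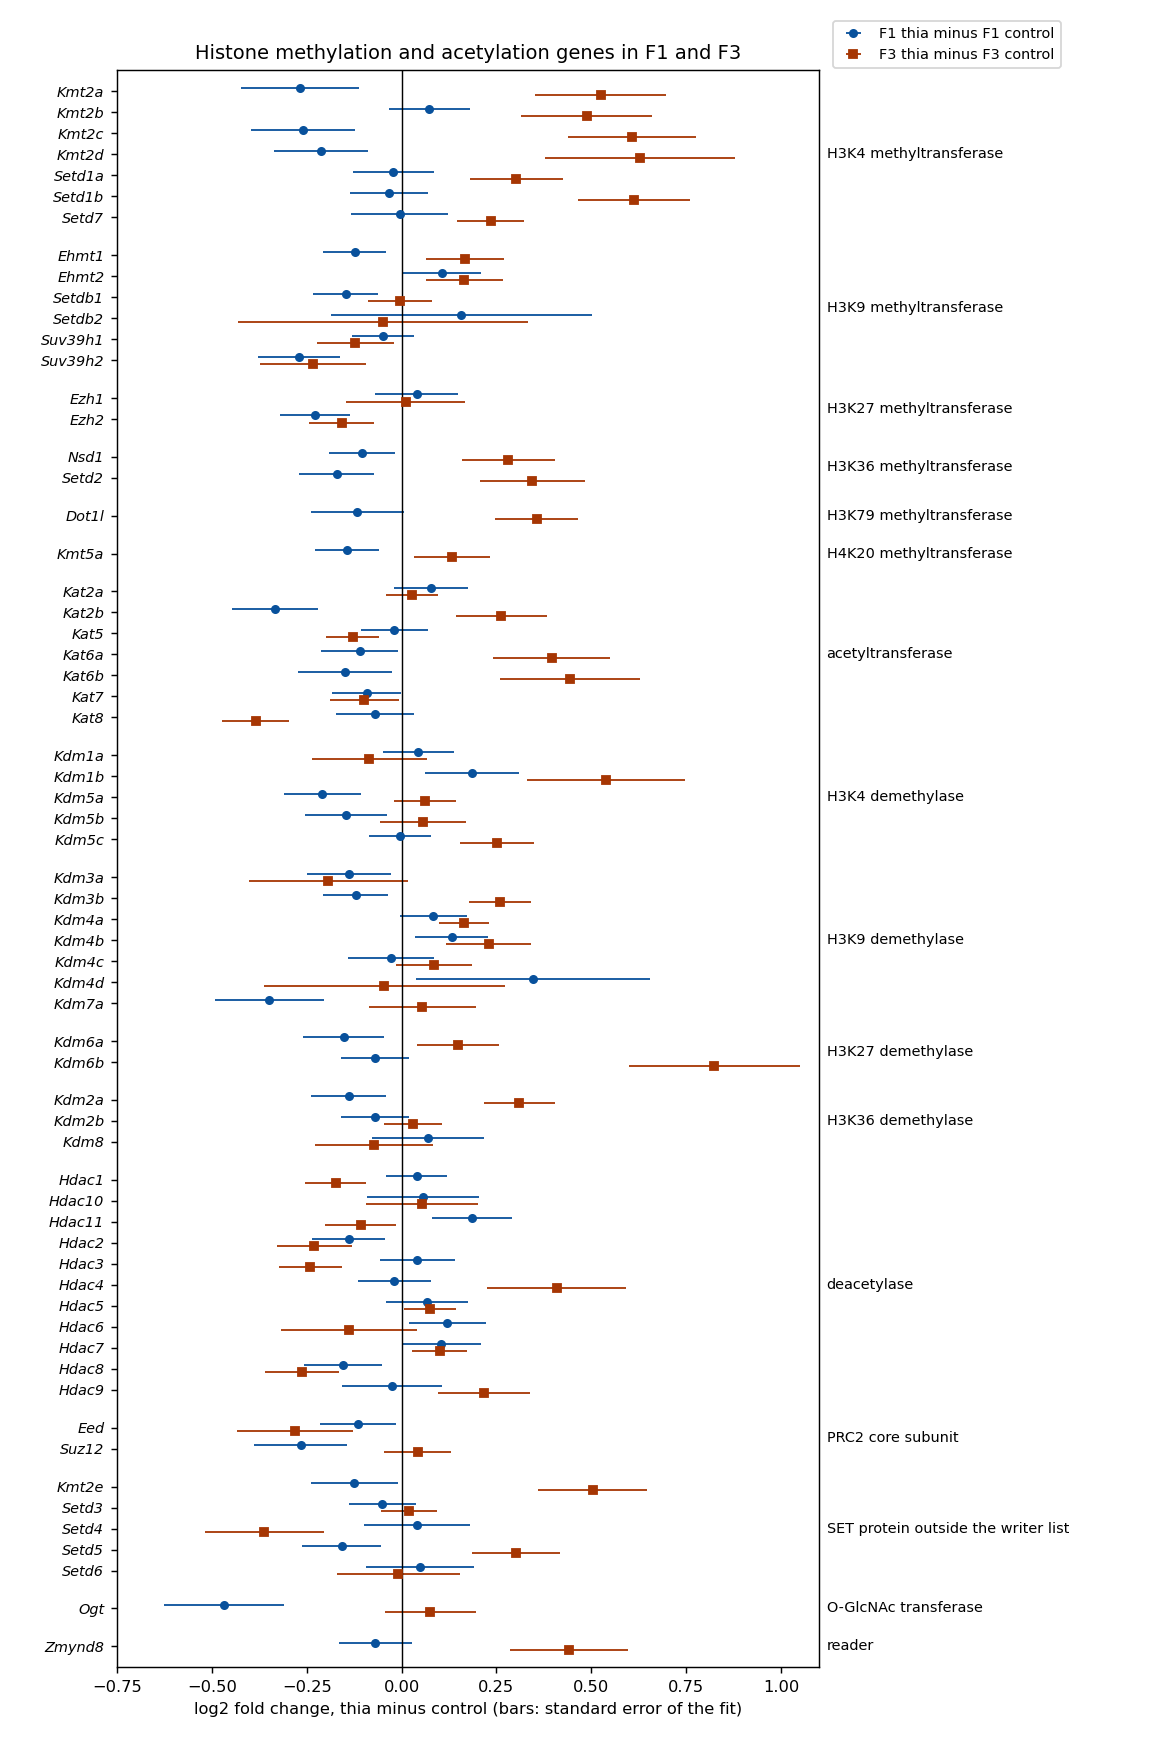
Log2 fold change of thia against control for each of the 63 genes, grouped by role, in F1 (blue circles) and F3 (brown squares), with bars for the standard error of the edgeR fit. The 7 H3K4 methyltransferases all lie right of 0 in F3, from 0.23 to 0.63, and the 4 class I deacetylases (*Hdac1*, *Hdac2*, *Hdac3* and *Hdac8*) all lie left of it.

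The H3K4 methyltransferases comprise the trithorax-related *Kmt2a*, *Kmt2b*, *Kmt2c* and *Kmt2d*, the broad H3K4 trimethylases *Setd1a* and *Setd1b*, and *Setd7*, a monomethylase that also acts on other proteins. All 7 were higher in F3 thia at an unadjusted p under 0.05 (11.0% of all genes were), with a median log2 fold change of 0.52. DESeq2 called 5 of them higher (9.17% of all genes). With the trend of fold change with exon length removed, 4 stayed under 0.05 (9.83% of all genes were higher), with a median of 0.38. Each of the 7 stayed above 0 under the other scalings and without any 1 library. The number at p under 0.05 fell to 2 without F3 control 1 or F3 thia 3. Of all genes, 11.9% and 13.8% were under 0.05 in those fits, both directions together. *Setd1b* and *Kmt2c* come from the rule for named genes, while the other 5 are named as members of the group after their values were seen.

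The promoters of 3 members at an unadjusted p under 0.05 in F3, picked with their values known, are shown. They are *Kmt2a* and *Kmt2c* with higher RNA in F3 thia and *Kat8* with lower. Each is the 250 bases before the RefSeq start (GRCm38.p6), read 5′ to 3′ on the gene's strand, with capitals marking GC boxes (GGGCGG or its complement CCGCCC, the core of the Sp1 family motif, on either strand, where neighbouring matches may overlap). *Kmt2a* lies at chr9:44881290-44881539 on the minus strand, *Kmt2c* at chr5:25498784-25499033 on the minus strand and *Kat8* at chr7:127912267-127912516 on the plus strand.
Kmt2a: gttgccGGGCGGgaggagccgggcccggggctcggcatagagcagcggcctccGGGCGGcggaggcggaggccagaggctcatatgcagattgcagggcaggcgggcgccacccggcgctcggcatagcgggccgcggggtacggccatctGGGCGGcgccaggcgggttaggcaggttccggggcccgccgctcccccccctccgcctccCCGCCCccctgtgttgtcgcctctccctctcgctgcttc
Kmt2c: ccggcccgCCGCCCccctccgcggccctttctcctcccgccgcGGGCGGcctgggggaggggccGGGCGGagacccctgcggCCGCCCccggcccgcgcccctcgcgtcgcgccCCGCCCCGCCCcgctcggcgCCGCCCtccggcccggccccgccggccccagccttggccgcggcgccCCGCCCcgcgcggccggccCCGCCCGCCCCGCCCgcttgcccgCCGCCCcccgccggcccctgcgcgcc
Kat8: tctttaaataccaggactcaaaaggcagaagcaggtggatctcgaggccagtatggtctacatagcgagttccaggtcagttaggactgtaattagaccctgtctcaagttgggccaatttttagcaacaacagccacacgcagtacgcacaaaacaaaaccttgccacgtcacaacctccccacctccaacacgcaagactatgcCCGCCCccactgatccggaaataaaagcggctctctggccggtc

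The *Kmt2c* window held 12 GC boxes and 48 CpG dinucleotides at 91.6% GC, the *Kmt2a* window 4 boxes and 29 CpGs at 76.8% GC, and the *Kat8* window 1 box and 10 CpGs at 51.2% GC. Of the 63 members, 50 matched the promoter table by symbol, and 29 of these (58.0%) held a GC box, as did 8901 of all 27025 promoters of the same length (32.9%). The 27025 were not limited to genes that passed the expression filter, as all members did, and the part of expression was not tested. The median number of CpGs was 17 in the members' windows and 6 in all. *Setd1b* and *Kdm6b* were among the members without an entry. The match describes letters in a window and no factor was measured. Whether the windows relate to the direction of the RNA difference was not tested.

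*Setd1b* was measured at 17.9, 23.3 and 25.02 CPM in the F3 control libraries and at 30.6, 33.2 and 37.5 CPM in F3 thia. The groups did not overlap, and the log2 fold change was 0.61 ± 0.15 (SE, edgeR adjusted p = 0.11, DESeq2 adjusted p = 0.00456, range of the adjusted p over 17 alternatives 0.00456 to 0.364). *Kmt2c*, the MLL3 enzyme that monomethylates H3K4 at enhancers, was at 16.9, 20.9 and 22.0 CPM in F3 control and 27.9, 25.9 and 37.4 CPM in F3 thia. Its groups did not overlap either, with a log2 fold change of 0.61 ± 0.17 (edgeR adjusted p = 0.129, DESeq2 adjusted p = 0.0133, range 0.0133 to 0.393). Its paralog *Kmt2d* stood at 20.4, 31.5 and 32.2 CPM in F3 control against 39.0, 32.9 and 57.8 CPM in F3 thia. There the lowest thia library lay just above the highest control, and the log2 fold change was 0.63 ± 0.25 (edgeR adjusted p = 0.211, DESeq2 adjusted p = 0.0625, range 0.0625 to 0.513).

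*Kmt2a*, known as MLL1, was at 19.8, 25.7 and 25.5 CPM in F3 control and at 34.0, 27.2 and 41.1 CPM in F3 thia, a log2 fold change of 0.52 ± 0.17. *Kmt2b* was at 46.0, 62.5 and 51.7 CPM in F3 control and at 85.5, 57.0 and 82.1 CPM in F3 thia. In *Kmt2b* the thia library with the most erythroid RNA, replicate 2, lay within the controls, while the other two thia libraries lay well above them. The edgeR adjusted p was 0.16 for *Kmt2a* and 0.177 for *Kmt2b*, and without F3 thia 2 it was 0.0753 and 0.0691, over ranges of 0.0403 to 0.437 and 0.0593 to 0.471. *Setd1a* and *Setd7* had smaller log2 fold changes of 0.30 ± 0.12 and 0.23 ± 0.09, and DESeq2 called neither. *Kmt2e* is grouped apart because its SET domain has no established methyltransferase activity, and it reads H3K4 trimethylation. It was at 43.2, 61.9 and 52.4 CPM in F3 control and 76.0, 65.1 and 82.2 CPM in F3 thia, without overlap, a log2 fold change of 0.50 ± 0.14 (edgeR adjusted p = 0.133, DESeq2 adjusted p = 0.0218, range 0.0218 to 0.385).

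**Figure D2:**
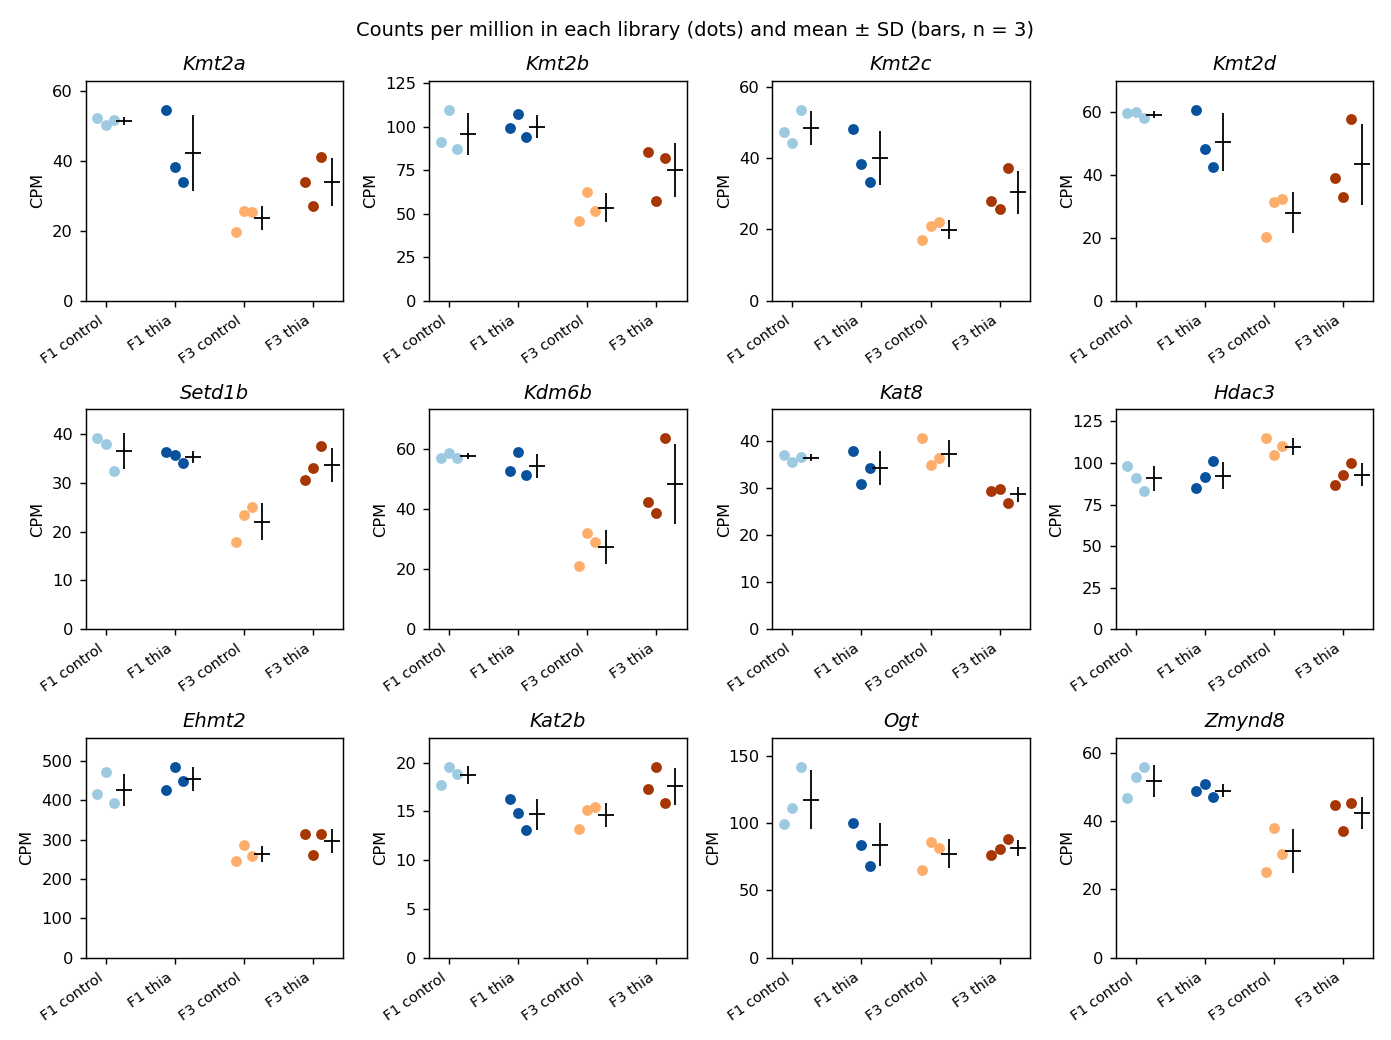
CPM of 12 of the genes in each library (dots) with the group mean and SD (bars, n = 3), in the order F1 control, F1 thia, F3 control and F3 thia. In *Kmt2c*, *Setd1b* and *Kdm6b* the 3 F3 control libraries are the lowest of the 12, in *Kat8* the 3 F3 thia libraries are, and in *Ogt* the F1 control library at 142 CPM is the highest.

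*Kdm6b*, or JMJD3, which removes H3K27 methylation, had the largest log2 fold change of the 63 genes in F3, 0.82 ± 0.23 (edgeR adjusted p = 0.126, DESeq2 adjusted p = 0.00528, range 0.00528 to 0.385). Its values were 20.96, 31.9 and 28.9 CPM in F3 control and 42.4, 38.8 and 63.5 CPM in F3 thia, so that every thia library lay above every control. Its relative *Kdm6a*, named after its values were seen, had a log2 fold change of 0.15 ± 0.11. Among the 5 H3K4 demethylases, *Kdm1b* was at 60.4, 86.5 and 76.2 CPM in F3 control and 144, 87.0 and 94.0 CPM in F3 thia. The lowest thia library was barely above the highest control, and F3 thia 1 alone stood far above (log2 fold change 0.54 ± 0.21, edgeR adjusted p = 0.201). *Kdm1b* is best known for a role in oocytes, where it removes H3K4 methylation before imprints are set. *Kdm2a*, an H3K36 demethylase that binds unmethylated CpG islands, was at 69.7, 79.5 and 82.5 CPM in F3 control and 98.5, 88.2 and 101 CPM in F3 thia, without overlap (log2 fold change 0.31 ± 0.09, edgeR adjusted p = 0.142, DESeq2 adjusted p = 0.055, range 0.055 to 0.405).

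The H3K9 enzymes, which act on the mark of constitutive heterochromatin and of silenced retrotransposons, differed little in F3. None of the 6 H3K9 methyltransferases reached an unadjusted p under 0.05, and their median log2 fold change was -0.03. *Ehmt2* stood at 245, 287 and 259 CPM in F3 control and 313, 259.9 and 314 CPM in F3 thia, with overlap, and its log2 fold change was 0.17 ± 0.10. The value of *Ehmt1* was 0.17 ± 0.10 as well. *Suv39h1* and *Suv39h2*, which trimethylate H3K9 in pericentromeric heterochromatin, had log2 fold changes of -0.12 ± 0.10 and -0.23 ± 0.14. That of *Setdb1*, which trimethylates H3K9 at retrotransposons, was -0.00 ± 0.08, with a sign that turned under DESeq2's size factors. Of the 7 H3K9 demethylases, *Kdm3b* (0.26 ± 0.08, edgeR adjusted p = 0.151) and *Kdm4a* (0.16 ± 0.07, edgeR adjusted p = 0.216) were higher at an unadjusted p under 0.05, and DESeq2 called *Kdm3b*. The fold changes of *Kdm4b* (0.23 ± 0.11), *Kdm4c* (0.09 ± 0.10), *Kdm7a* (0.05 ± 0.14), *Kdm3a* (-0.19 ± 0.21) and *Kdm4d* (-0.05 ± 0.32) did not pass.

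Among the other writers, *Dot1l*, the H3K79 methyltransferase, was at 32.1, 40.8 and 39.0 CPM in F3 control and 49.6, 44.2 and 49.4 CPM in F3 thia, a log2 fold change of 0.36 ± 0.11 (edgeR adjusted p = 0.143, named after its values were seen). The 2 H3K36 methyltransferases, *Setd2* (0.34 ± 0.14) and *Nsd1* (0.28 ± 0.12), leaned the same way, and *Setd2* reached an unadjusted p under 0.05. *Ezh2*, the main catalytic subunit of polycomb repressive complex PRC2, was at 76.1, 81.2 and 78.9 CPM in F3 control and 74.0, 75.3 and 62.8 CPM in F3 thia. All 3 thia libraries lay below the controls, though the log2 fold change, -0.16 ± 0.08, did not pass at the unadjusted threshold. Its core partners *Suz12* and *Eed* were at 0.04 ± 0.09 and -0.28 ± 0.15, and *Kmt5a*, the H4K20 monomethylase, at 0.13 ± 0.10. *Suz12*, *Eed*, *Kmt5a*, *Setd2* and *Nsd1* are named after their values were seen.

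Of the 7 acetyltransferases, 2 were higher and 1 lower in F3 thia at an unadjusted p under 0.05, where 11.0% and 10.0% of all genes were. *Kat8*, or MOF, which acetylates H4K16, was at 40.5, 34.9 and 36.4 CPM in F3 control and at 29.3, 29.7 and 26.7 CPM in F3 thia, the lowest 3 of the 12 libraries. Its log2 fold change was -0.38 ± 0.09 (edgeR adjusted p = 0.107, DESeq2 adjusted p = 0.0226, range 0.0226 to 0.364), and it was the only member that DESeq2 called lower. *Kat6a* and *Kat6b*, the paralogs MOZ and MORF, had log2 fold changes of 0.40 ± 0.15 and 0.44 ± 0.19, both at an unadjusted p under 0.05. With the trend of fold change with exon length removed they were at 0.29 and 0.26, and neither stayed under 0.05. *Kat2a*, *Kat5* and *Kat7* lay between -0.13 and 0.03. *Kat2b* was at 0.26 ± 0.12, and its values are given below. All but *Kat8* and *Kat2b* are named to complete the group, after their values were seen.

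Of the 11 deacetylases, 5 lay above 0 and 6 below in F3, and no test compared their classes. The class I enzymes *Hdac1*, *Hdac2*, *Hdac3* and *Hdac8*, which work in the nucleus mostly within corepressor complexes, all had log2 fold changes below 0 in F3, from -0.26 to -0.17, in each alternative fit as well. *Hdac3*, which removes acetyl groups from histone tails, was at 115, 104 and 109.9 CPM in F3 control and 86.4, 92.5 and 99.9 CPM in F3 thia, without overlap (log2 fold change -0.24 ± 0.08, edgeR adjusted p = 0.168). *Hdac8* was at 16.6, 17.9 and 16.1 CPM in F3 control and 13.4, 14.7 and 14.2 CPM in F3 thia, also apart (-0.26 ± 0.10, edgeR adjusted p = 0.185). These 2 reached an unadjusted p under 0.05, and *Hdac2* (-0.23 ± 0.10) did not. The class IIa enzymes *Hdac4*, *Hdac5*, *Hdac7* and *Hdac9*, which shuttle between nucleus and cytoplasm, had values above 0, from 0.07 to 0.41, and none reached the unadjusted threshold. With the trend of fold change with exon length removed, 3 of these 4 stayed above 0, and with the trend with GC content removed, 2 did. Of the class IIb and IV enzymes, *Hdac10* was at 0.05, *Hdac6* at -0.14 and *Hdac11* at -0.11, and none passed. All but *Hdac2*, *Hdac3*, *Hdac6*, *Hdac8* and *Hdac11* are named after their values were seen.

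*Ogt*, the X-linked enzyme that adds O-GlcNAc to serine and threonine of nuclear and cytosolic proteins, and *Zmynd8*, a reader of acetylated and methylated histone tails, are not histone writers or erasers themselves. In F3, *Ogt* was at 64.8, 85.6 and 81.6 CPM in control and 76.2, 80.4 and 88.1 CPM in thia. The groups overlapped, with a log2 fold change of 0.08 ± 0.12. *Zmynd8* was at 25.2, 37.9 and 30.4 CPM in F3 control and 44.7, 37.0 and 45.2 CPM in F3 thia. Only replicate 2 of thia lay within the controls, and the log2 fold change was 0.44 ± 0.16 (edgeR adjusted p = 0.174, DESeq2 adjusted p = 0.0668, range 0.0668 to 0.444). *Setd4*, a low-level SET protein, was at 8.34, 8.01 and 7.20 CPM in F3 control and 5.72, 5.46 and 7.10 CPM in F3 thia, apart but with a log2 fold change of -0.36 ± 0.16 that did not pass. *Setd5* (0.30 ± 0.12) and the H3K4 demethylase *Kdm5c* (0.25 ± 0.10) completed the members higher at an unadjusted p under 0.05, and both are named for that reason. The members not named for F3 lay between -0.14 and 0.06. *Setd3*, the highest of the other genes and an actin histidine methyltransferase, was at 122 ± 4.54 CPM (SD, n = 3) in F3 control and 124 ± 7.997 in F3 thia.

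In the directly exposed F1 embryos, 43 of the 63 members had a log2 fold change below 0, against 48.0% of all genes, and no member passed an adjusted test. edgeR called 2 of 19137 genes at an adjusted p of 0.15 (0.0105%), neither a member, and DESeq2 called 1.13% of genes and no member. At an unadjusted p under 0.05, 5 members were lower (7.94%, against 4.13% of all genes) and 0 were higher (against 4.63%). All F1 thia libraries lay below all F1 controls in 10 members (15.9%, against 8.45% of all genes) and above them in none (against 6.55%). The median log2 fold change was -0.07 over members and 0.01 over all genes, and it was -0.11 over writers and -0.01 over erasers. Under upper quartile scaling the median over erasers was 0.01. The count of 5 was 8 without F1 control 1 (12.7%, against 11.7% of all genes in that fit, both directions together), 2 without F1 control 3 (3.17%, against 5.95%), 3 without F1 thia 2 (4.76%, against 7.94%) and 0 without F1 thia 3 (against 5.15%).

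*Ogt* had the largest of these differences. It was at 99.2, 111 and 142 CPM in F1 control and 99.9, 83.6 and 68.5 CPM in F1 thia, so the lowest control and the highest thia library nearly coincided. The log2 fold change was -0.47 ± 0.16 (edgeR adjusted p = 0.518, range over 17 alternatives 0.144 to 0.93). *Kat2b*, the acetyltransferase PCAF, was at 17.7, 19.6 and 18.8 CPM in F1 control and 16.3, 14.8 and 13.1 CPM in F1 thia, without overlap (-0.33 ± 0.11, edgeR adjusted p = 0.518). *Kdm7a*, which removes H3K9 and H3K27 dimethylation, was at 36.1, 36.3 and 50.7 CPM in control and 33.2, 33.9 and 28.4 CPM in thia (-0.35 ± 0.14, edgeR adjusted p = 0.556). There control replicate 3 stood apart from the other two controls.

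*Suv39h2* and *Ezh2* completed the 5. *Suv39h2* was at 26.1, 29.3 and 32.8 CPM in F1 control and 24.0, 23.8 and 24.5 CPM in F1 thia (-0.27 ± 0.11, edgeR adjusted p = 0.551). *Ezh2* was at 89.1, 89.4 and 105 CPM in control and 79.7, 77.7 and 81.5 CPM in thia (-0.23 ± 0.09, edgeR adjusted p = 0.553). Both pairs of groups were apart. In the same comparison 7 of 11 germ cell markers were lower at an unadjusted p under 0.05, as given above. Their sums overlapped, at 1308 to 1787 CPM in F1 control and 1173 to 1351 in F1 thia. Whether the germ cell markers relate to *Suv39h2* and *Ezh2* was not tested. The values above 0 with the smallest p belonged to *Kdm4d* (0.35 ± 0.31), *Hdac11* (0.19 ± 0.11), *Kdm1b* (0.19 ± 0.12), *Kdm4b* (0.13 ± 0.10) and *Hdac6* (0.12 ± 0.10), and none passed. *Ehmt2* was at 415, 472 and 392 CPM in F1 control and 426, 485 and 449.7 CPM in F1 thia. Of the H3K9 methyltransferases, *Suv39h2* alone reached the unadjusted threshold, and of the H3K9 demethylases *Kdm7a* alone did. *Zmynd8* was at 51.8 ± 4.69 CPM (SD, n = 3) in F1 control and 48.8 ± 1.95 in F1 thia.

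The difference between the F3 and F1 effects was tested as an interaction over the 12 libraries. edgeR called 1 of 19626 genes at an adjusted p of 0.1 (0.00510%) and no member. At an unadjusted p under 0.05, 22 members had the higher thia effect in F3 (34.9%, against 7.93% of all genes) and 1, *Kat8*, the lower (1.59%, against 6.10%). With the trend of fold change with exon length removed the 22 became 7, as given below. DESeq2 called 9 of 61 members with a higher effect in F3 (14.8%, against 2.85% of all genes) and 0 with a lower one (against 1.89%). The differences with the smallest p belonged to *Kmt2c* (0.88 ± 0.23 on the log2 scale), *Kat2b* (0.61 ± 0.16), *Setd1b* (0.66 ± 0.18), *Kdm6b* (0.91 ± 0.25) and *Kdm3b* (0.40 ± 0.11), each with an edgeR adjusted p of 0.248. Their DESeq2 adjusted p ran from 0.0315 to 0.0681, and over 22 alternatives their highest adjusted p was 0.521 to 0.702. *Kat2b*, lower in F1 thia, was at 13.2, 15.2 and 15.46 CPM in F3 control and 17.3, 19.6 and 15.8 CPM in F3 thia, where all thia libraries were higher. For *Ogt* the difference was 0.56 ± 0.22 (edgeR adjusted p = 0.294).

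The control groups of both generations also differed, and more widely than thia and control did. The dams of F1 control were themselves gavaged and those of F3 control were not, and the generation, the dam's handling and the set of libraries cannot be told apart. Of the 63 members, 42 (66.7%) were lower in F3 control than in F1 control at an edgeR adjusted p of 0.1, where 22.4% of all genes were, and 2 (3.17%), *Hdac3* and *Hdac11*, were higher, where 19.9% of all genes were. The median log2 difference was -0.39 over members and -0.02 over all genes. All 7 H3K4 methyltransferases were lower (median -0.85), as were 22 of 26 writers and 14 of 28 erasers. *Kdm1b* fell from 216 ± 37.2 CPM (SD, n = 3) in F1 control to 74.4 ± 13.1 in F3 control, the largest difference among members (log2 -1.54 ± 0.19, edgeR adjusted p = 0.000226). *Kmt2c* fell from 48.4 ± 4.80 to 20.0 ± 2.67 CPM and *Ehmt2* from 426 ± 41.1 to 264 ± 20.99 CPM. In 38 members F3 control had the lowest mean of the 4 groups, and in 6 the highest. The share of all genes in either place was not counted. The F3 comparison and this one share the F3 control libraries, so a low F3 control library moves both.

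The differences of members followed the length of their exons. In F3, 32 of the 35 members with more than 6 kb of exon lay above 0, and 10 of the 28 shorter ones did. Across members, the log2 fold change in F3 had a Pearson r of 0.64 and a Spearman rho of 0.70 with log2 exon length (n = 63 genes, which share the same libraries). Over all genes tested rho was 0.26. In F1 the members' rho was -0.45 (all genes -0.20). The same dependence stood between libraries: each gene's log2(CPM + 0.1) was set against its mean over the 12 libraries, and the median of this deviation over 2754 genes with 8 kb of exon or more, minus that over 3617 genes with 2 kb or less, was -0.40, -0.23 and -0.30 in F3 control, -0.03, -0.12 and -0.08 in F3 thia, 0.15, 0.20 and 0.44 in F1 control and 0.09, 0.22 and 0.04 in F1 thia.

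When the trend of the fold change with length was removed from all genes, 9 members were higher and 6 lower in F3 thia at an unadjusted p under 0.05, in place of 20 and 3. These are 14.3% and 9.52% of members, against 9.83% and 9.35% of all genes in the same fit. For the difference between the F3 and F1 effects, 7 members were higher (11.1%, against 5.32% of all genes) and 1 lower (1.59%, against 5.40%), in place of 22 and 1. The 7 H3K4 methyltransferases stayed above 0 with a median of 0.38, and 4 of them stayed under p 0.05. The value of *Kdm6b*, whose exons span 6.95 kb, was then 0.77, that of *Setd1b* 0.47, of *Kmt2c* 0.39 and of *Kat8* -0.33. *Kdm2a*, with 14.45 kb, went from 0.31 to 0.14 and was no longer under 0.05. Members with 12 kb or more had a median of 0.31 in F3 (13 genes), and all 875 genes of that length had 0.18. Between the controls, 33 members were lower in F3 control at an unadjusted p under 0.05 after the trend was removed (52.4%, against 20.1% of all genes), in place of 43 (68.3%, against 23.3%). What sets this dependence was not tested.

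**Figure D3:**
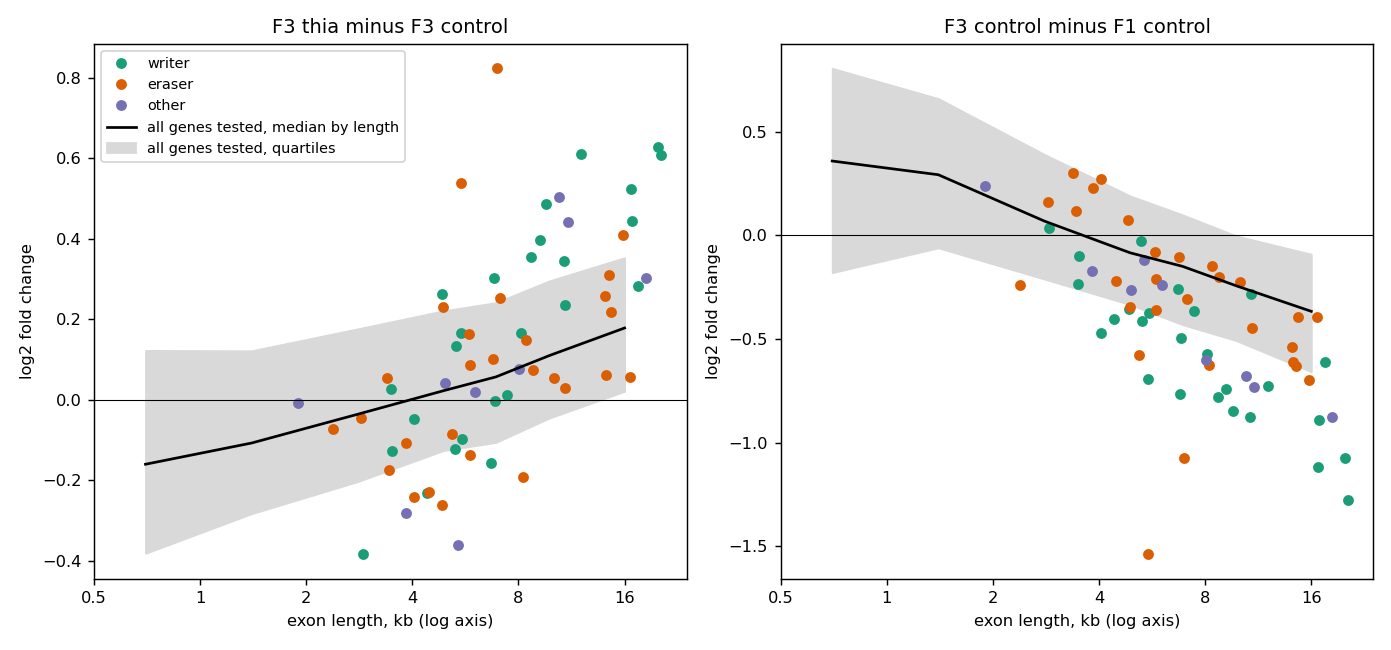
Log2 fold change against exon length (kb, log axis) for the 63 genes, coloured by class, with the median (line) and quartiles (grey) of all genes tested by length, for F3 thia against F3 control (left) and F3 control against F1 control (right). The median of all genes rises with length from -0.16 to 0.18 on the left and falls from 0.36 to -0.37 on the right, and *Kdm6b* (0.82, 6.95 kb) lies farthest above the left line.

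The partners of these enzymes, 127 genes listed by complex, of which 123 were tested, lay on both sides of 0 in F3, with 61 above, 62 below and a median log2 fold change of -0.00. At an unadjusted p under 0.05, 23 were higher in F3 thia (18.7%, against 11.0% of all genes) and 15 lower (12.2%, against 10.0%). With the length trend removed, 13 of the 123 were higher (against 9.83% of all genes in that fit) and 14 lower (against 9.35%). DESeq2 called 14 higher (11.4%, against 9.17%) and 6 lower (4.88%, against 5.70%). In F1, 83 of the 123 lay below 0 (67.5%, against 48.0% of all genes), with a median of -0.04, while 0 were higher (against 4.63%) and 6 lower (4.88%, against 4.13%) at the unadjusted threshold. *Ncoa6*, a subunit of the *Kmt2c* and *Kmt2d* complexes, was at 20.5, 27.6 and 24.6 CPM in F3 control and 37.2, 31.2 and 39.2 CPM in F3 thia, without overlap (0.57 ± 0.14, edgeR adjusted p = 0.11, DESeq2 adjusted p = 0.00633). Of the 12 COMPASS and MLL partners as a whole, 4 lay above 0 and 8 below. *Ep300*, the acetyltransferase p300, had a log2 fold change of 0.49 ± 0.12. *Rbbp4*, a histone chaperone shared by PRC2, NuRD and Sin3 complexes, was lower at -0.33 ± 0.07, and so was *Prmt1*, the main arginine methyltransferase, at -0.28 ± 0.07. In F1 the smallest p among partners belonged to *Mtf2*, an accessory subunit of PRC2, at -0.35 ± 0.11 (edgeR adjusted p = 0.505).

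Writers and erasers were compared by their summed level per kb of exon. The writers summed to 309 ± 13.0 CPM per kb (SD, n = 3) in F1 control, 299 ± 11.9 in F1 thia, 220.2 ± 11.1 in F3 control and 234 ± 13.8 in F3 thia. The erasers summed to 393 ± 14.2, 389 ± 9.002, 309.8 ± 9.55 and 309 ± 22.0 CPM per kb in the same order. Thia and control thus overlapped within each generation for both sums, and both sums were lower in F3 than in F1. The ratio of writers to erasers was 0.683, 0.728 and 0.720 in F3 control and 0.746, 0.763 and 0.771 in F3 thia, so that F3 control lay below F3 thia without overlap. In F1 it was 0.790, 0.803 and 0.767 in control and 0.764, 0.782 and 0.756 in thia, with overlap. These sums weigh the abundant *Ehmt2*, *Hdac2* and *Kdm1a* most. The trend with exon length was not removed from the sums or the ratio, and its part in the separation was not tested. By gene, the median log2 fold change in F3 was 0.20 over writers, 0.06 over erasers and 0.04 over the other genes. At an unadjusted p under 0.05, 11 of 26 writers were higher and 1 lower, and 6 of 28 erasers were higher and 2 lower. Of the 9 other genes 3 were higher and 0 lower, where 11.0% of all genes were higher and 10.0% lower. After removal of the length trend the medians of writers and erasers were 0.10 and 0.01. In that fit 5 writers were higher and 2 lower, and 2 erasers were higher and 3 lower. Of all genes, 9.83% were higher and 9.35% lower in the same fit.

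**Figure D4:**
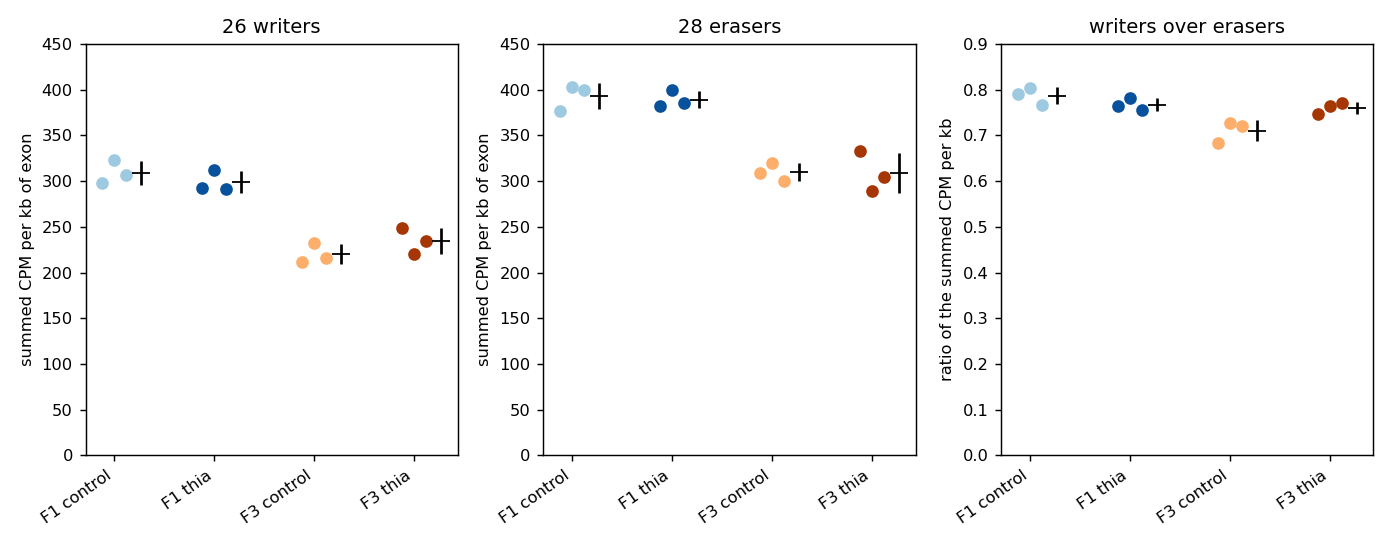
Summed CPM per kb of exon of the 26 writers (left) and 28 erasers (middle) and the ratio of the sums (right) in each library (dots), with the group mean and SD (black, n = 3). F3 control has the lowest ratios, 0.683 to 0.728, and the other 9 libraries lie between 0.746 and 0.803.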

How the data were processed

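RNA of embryonic testis at E15.5 was measured in 12 libraries, 3 for each of F1 control, F1 thia, F3 control and F3 thia. The authors aligned paired-end stranded reads to mm10 with HISAT2 2.1.0 and counted them with featureCounts over RefSeq genes; the deposited values are raw counts per gene symbol (35976 symbols, no row without a gene). Counting options and whether reads or pairs were counted are not given in the sources used here, so reads shared by paralogs may be split between them.

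The counts were tested with edgeR 4.0.16 (quasi-likelihood, TMM scaling, genes with a minimum count of 10 by its expression filter) within F1 (adjusted p under 0.15) and within F3 (under 0.1), and over the 12 libraries for the difference of effects and for F3 control against F1 control (under 0.1), with Benjamini-Hochberg adjustment over all genes tested. DESeq2 1.42.0, other scalings and filters, a replicate block and removal of length or GC trends (loess, span 0.3) were tried as alternatives, and each library was left out in turn. Scripts were tested on simulated data. CPM and CPM per kb used exon lengths of GENCODE M21. The same thresholds, as well as groups that did not overlap, were applied to all genes to give the background shares. P-values measure only the spread between pools, and the depth of 25081647 to 68996146 counts covers counting error only.

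The members, their roles, the partner and marker lists and the tests were chosen with earlier results of these data known. Genes named in the text were *Ogt*, *Zmynd8*, the 5 members higher and the 5 lower with the smallest p in F1 and in F3, the 5 with the smallest p of the difference, the H3K9 enzymes and the highest and lowest of each class, and all other members named were chosen after their values were seen. Of the partner symbols, Tasor, Riox1 and Riox2 were not matched, and the values of 1 further partner are not reported here. The same-numbered replicates of a generation did not deviate together (correlations of -0.0433, -0.039 and 0.0316 in F1 and 0.195, -0.368 and -0.238 in F3), so the fits had no block. No libraries were near duplicates (chi-square over degrees of freedom between replicates from 17.3 to 101). Promoters came from RefSeq (GRCm38.p6).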

Additional observations from a re-analysis of the deposited data

Results flagged for a closer look

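For 2 members, every F1 thia library lay below every F1 control and every F3 thia library lay above every F3 control. Of all genes, 8.45% lay apart below in F1 and 13.4% apart above in F3, and the share that did both was not counted. The interaction uses the same libraries in which these 2 members were found, so it gives no separate support. The interaction over the 12 libraries was a log2 difference of 0.612 for *Kat2b* (edgeR adjusted p = 0.248, DESeq2 adjusted p = 0.049, highest over 22 alternatives 0.521) and of 0.397 for *Kdm3b* (edgeR adjusted p = 0.248, DESeq2 adjusted p = 0.0681, highest 0.702). *Kdm3b* was at 91.4, 93.0 and 97.3 CPM in F1 control and 80.6, 91.2 and 84.3 CPM in F1 thia, and at 59.6, 69.2 and 65.1 CPM in F3 control and 77.7, 73.1 and 81.3 CPM in F3 thia. Its exons span 14.1 kb, and its log2 fold change in F3 was 0.09 with the length trend removed, while that of *Kat2b* (4.87 kb) was 0.24.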

How the results depend on the processing

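In F1, 0 members passed the adjusted threshold and 1 did with no filter on low counts, and the 5 members at an unadjusted p under 0.05 became 0 to 8 when 1 library was left out. In F3, the 0 members past the adjusted threshold became 13 with DESeq2, 9 with all libraries in one fit (14.3%, against 9.86% of all genes), 2 with no filter and 0 to 10 when 1 library was left out, the highest without F3 thia 2. Of these, 7 members (*Kat8*, *Kdm2a*, *Kdm6b*, *Kmt2b*, *Kmt2c*, *Kmt2e* and *Setd1b*) were called by DESeq2, in the fit of all libraries and without F3 thia 2. The 23 members at an unadjusted p under 0.05 in F3 became 15 with the length trend removed, 15 with the replicate block and the length trend removed, and 7 to 25 when 1 library was left out. The replicate block alone gave 18 in F3 and 5 in F1, and 42 in place of 44 members called between the controls, though the numbers did not pair the samples. The share of all genes was not counted for the fits with the replicate block or with no filter. For the difference of effects, DESeq2 called 9 members in place of 0, and the median over members, 0.161, became 0.0533 with the length trend removed, 0.0532 with the replicate block as well and 0.0841 under upper quartile scaling. The median between the controls, -0.393, became -0.246, -0.252 and -0.299 under the same settings and lay between -0.456 and -0.358 when 1 library was left out.

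Among the named genes, signs turned for those that follow. In F1, *Ehmt2* was at -0.011 and *Kdm4c* at 0.0927 with the GC trend removed, and without 1 library *Kdm4c* ran from -0.105 to 0.0423 and *Setdb2* from -0.103 to 0.485. In F3, with the length trend removed *Kdm4d* was at 0.0118, *Kdm7a* at -0.063 and *Ogt* at -0.00474, and with the replicate block as well *Kdm7a* was at -0.0751 and *Ogt* at -0.000703. *Setdb1* was at 0.00847 with DESeq2, 0.00768 with its size factors, 0.0134 with the GC trend removed and 0.0136 with no filter, and *Setdb2* at 0.0186 with the GC trend removed. Without 1 library the F3 values ran from -0.22 to 0.142 for *Kdm4d*, from -0.0996 to 0.137 for *Kdm7a*, from -0.0376 to 0.14 for *Ogt*, from -0.0758 to 0.0471 for *Setdb1* and from -0.33 to 0.112 for *Setdb2*. Over the named genes and these alternatives, 333 F1 values and 379 F3 values kept direction and side of the threshold, and 1 and 24 passed it. The cause of these changes was not tested. The precision for *Kdm4d* and *Setdb2* is limited by their low counts.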
